A study of Mus musculus with 4 samples.

Results

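The genes described here make, load, clear and break down the inhibitory transmitter GABA, set the chloride gradient on which its fast action rests, and encode its slow receptor. They are Gad1, Gad2, Slc32a1, Slc6a11, Abat, Slc12a2, Slc12a5, Gabbr1 and Gabbr2, a list of 9 genes chosen by function and found by identifier among the 55421 genes of the count files. The data come from bulk RNA-seq of mouse prefrontal cortex (PFC) cells that were taken from wild-type C57BL/6 animals at postnatal day 0, dissociated with papain and cultured for 10 days in neurobasal medium with B27. Of the 4 libraries, 2 were from cultures that received fibroblast growth factor 2 (FGF2), added at 5 ng/mL, and the other 2 were from untreated (no FGF2) cultures. The comparison asks how FGF2 changes the transcription of neuronal genes in cultured mouse cortex. The libraries of a group are replicates 1 and 2. The study's methods class bulk RNA-seq replicates outside a pair of human fetal ages as technical, in a passage that does not name mouse libraries. The sample titles do not say at which step the libraries were split. The SDs and p-values are therefore read as a spread between technical replicates and not between cultures or animals. Between 9166432 and 10799886 read pairs per library were counted on genes.

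GABA is made from glutamate by 2 glutamate decarboxylases, GAD67 (Gad1) and GAD65 (Gad2), and is packed into synaptic vesicles by the vesicular transporter VGAT (Slc32a1). After release it is taken back by plasma membrane transporters, of which GAT3 (Slc6a11) sits mainly on astrocytes, and it is broken down by GABA transaminase (Abat). The chloride importer NKCC1 (Slc12a2) and the neuronal chloride extruder KCC2 (Slc12a5) set whether opening a GABA-A channel excites or inhibits a neuron, and in the developing cortex KCC2 appears later than NKCC1. GABA-B receptors are obligate pairs of a GABA-binding subunit (Gabbr1) and a subunit that couples to G proteins (Gabbr2).

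Gad1, Gad2, Slc32a1 and Slc12a5 all lie on chromosome 2 of mm10. The 250 bases before the start of these 4 genes are shown as an example from a single chromosome that takes in the synthesis, vesicle and chloride extrusion genes. They are from RefSeq on GRCm38.p6 (mm10), written 5′ to 3′ in lower case, with motif matches on either strand in capitals. The motifs searched were the homeodomain core TAATTA, the core of the cAMP response element TGACG, the E-box of proneural factors CAGCTG, a second form of E-box CACCTG, the GC box bound by Sp factors GGGCGG, the TATA box TATAAA and the right-hand part of the RE1 element, GGACAGC. No matches shown overlap each other. The RefSeq starts of Gad1, Gad2 and Slc12a5 lie inside the genes as GENCODE M21 draws them.
Gad1, chr2:70561879-70562128, plus strand: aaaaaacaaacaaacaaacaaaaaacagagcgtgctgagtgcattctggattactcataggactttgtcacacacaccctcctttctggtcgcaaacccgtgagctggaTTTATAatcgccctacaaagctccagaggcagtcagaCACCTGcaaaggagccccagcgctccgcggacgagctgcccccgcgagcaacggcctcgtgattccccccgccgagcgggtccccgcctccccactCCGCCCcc
Gad2, chr2:22622077-22622326, plus strand: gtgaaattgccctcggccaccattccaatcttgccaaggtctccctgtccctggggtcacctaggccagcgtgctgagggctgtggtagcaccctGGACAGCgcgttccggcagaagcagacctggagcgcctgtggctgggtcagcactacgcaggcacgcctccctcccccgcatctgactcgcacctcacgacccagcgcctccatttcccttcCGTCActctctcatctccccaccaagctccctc
Slc32a1, chr2:158610508-158610757, plus strand: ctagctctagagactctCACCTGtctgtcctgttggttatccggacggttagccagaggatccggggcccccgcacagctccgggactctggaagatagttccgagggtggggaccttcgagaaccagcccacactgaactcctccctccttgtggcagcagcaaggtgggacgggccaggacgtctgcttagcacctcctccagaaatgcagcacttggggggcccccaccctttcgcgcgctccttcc
Slc12a5, first start, chr2:164960596-164960845, plus strand: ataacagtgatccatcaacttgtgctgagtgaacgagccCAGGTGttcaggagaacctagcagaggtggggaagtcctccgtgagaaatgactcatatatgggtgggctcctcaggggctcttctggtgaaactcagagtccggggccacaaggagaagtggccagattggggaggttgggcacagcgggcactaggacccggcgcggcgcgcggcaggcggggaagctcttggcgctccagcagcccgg
Slc12a5, second start, chr2:164967738-164967987, plus strand: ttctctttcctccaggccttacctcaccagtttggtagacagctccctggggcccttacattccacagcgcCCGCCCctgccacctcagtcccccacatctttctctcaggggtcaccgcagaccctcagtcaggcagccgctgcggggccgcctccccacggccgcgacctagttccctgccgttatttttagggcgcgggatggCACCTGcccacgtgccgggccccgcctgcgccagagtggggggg
The motif search covered 8 starts of 7 of the 9 genes. No start of Abat or Slc12a2 was included, so the counts that follow say nothing about these genes. CACCTG was found in 5 of these 8 sequences and in 17.2% of all 32851 sequences of the same length. GGGCGG was also found in 5 of 8, against 32.7% of all. TATAAA was found only before Gad1 (12.4% of all), where it lies 141 bases before the start, and TGACG only before Gad2 (17.8% of all). GGACAGC was found only before Gad2, 155 bases before its start, and in 5.28% of all sequences. TAATTA and CAGCTG were in 0 of the 8 and in 4.84% and 13% of all. The GC content ran from 58% before Gad1 to 80.8% before Gabbr2, above the median of 52.4% over all sequences, and the observed over expected CpG ratio ran from 0.497 before Slc32a1 to 0.92 before Gabbr2, against a median of 0.373. These matches describe letters and not binding.

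Transcription levels of 8 of the 9 genes fell with FGF2 and that of Slc12a2 rose, and all 9 passed at 0.05 after Benjamini-Hochberg adjustment over the 17144 genes to which the edgeR quasi-likelihood test was applied. Of all tested genes, 40.5% passed in either direction, 19.9% were lower and 20.7% were higher at the same threshold. The groups did not overlap for any of the 9 genes, while 33.4% of all tested genes had both FGF2 libraries below both libraries without FGF2 and 33.6% had them above. The median log2 fold change of the 9 genes (FGF2 over no FGF2) was -0.72, against -0.00082 over all tested genes. In bulk RNA, fewer cells of a type and less RNA per cell cannot be told apart.

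**Figure D1:**
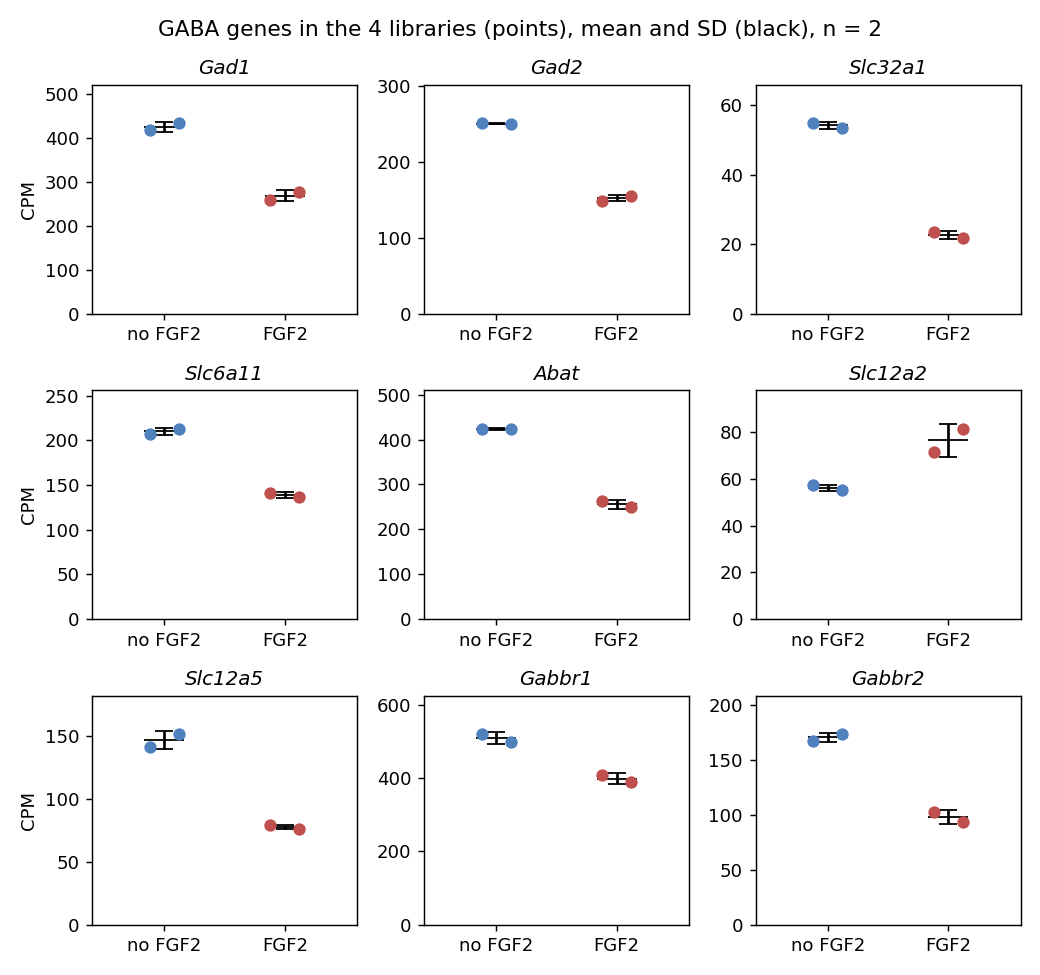
Transcription level in CPM (y axis, from 0) of each of the 9 GABA genes in the 2 libraries without FGF2 (blue) and the 2 with FGF2 (red), with the mean and SD in black. The groups are separate in every panel, and Slc12a2 is the only panel in which the FGF2 libraries are the higher ones, at 71.5 and 81.5 CPM against 57.2 and 55.3.

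The 2 synthesis genes fell by nearly the same factor. Gad1 (ENSMUSG00000070880, chromosome 2, 70553072 to 70602014, plus strand) was at 259 and 277 CPM (counts scaled to library size, with TMM factors) in FGF2 replicates 1 and 2 and at 418 and 434 CPM in the replicates without FGF2. The FGF2 libraries were low and the groups did not overlap. Its log2 fold change was -0.67 (standard error, SE, 0.042, edgeR adjusted p = 8.45e-56), so that 63.0% of the level without FGF2 remained. Gad2 (ENSMUSG00000026787, chromosome 2, 22622205 to 22693874, plus strand) was at 149 and 154 CPM with FGF2 and at 251 and 249 CPM without FGF2. Again both FGF2 libraries were low, with a log2 fold change of -0.72 (SE 0.050, edgeR adjusted p = 1.1e-45). The ratio of Gad1 to Gad2 within a library, taken per kilobase of exon, was 1.34 and 1.38 with FGF2 and 1.28 and 1.34 without. The groups of this ratio lay close together without overlapping. Their difference was 0.055 on the log2 scale, where the SDs were 0.031 with FGF2 and 0.045 without (exact permutation test, two-sided, p = 0.333). A ratio between genes depends on the lengths used, and by the longest transcript its mean was 1.497 with FGF2 and 1.44 without on the log2 scale, in place of 0.44 and 0.39, while the difference between groups does not depend on length.

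The vesicular transporter had the lowest fold change of the 9 genes. Slc32a1 (ENSMUSG00000037771, chromosome 2, 158610767 to 158615748, plus strand) had 23.5 and 21.8 CPM with FGF2 and 54.9 and 53.6 CPM without FGF2. Both FGF2 libraries were below the level of the other 2, and 41.7% of the level without FGF2 remained. The log2 fold change was -1.26 (SE 0.10, edgeR adjusted p = 5.17e-32), among the lowest 1.43% of all tested genes. A fall below -1 at the adjusted threshold was found for 2.38% of all tested genes and for Slc32a1 alone among the 9. Within a library the ratio of Slc32a1 to Gad2 per kilobase was 0.332 and 0.296 with FGF2 and 0.46 and 0.451 without, a change of -0.54 on the log2 scale against SDs of 0.12 and 0.020. The groups of this ratio did not overlap, and its exact permutation p of 0.333 (two-sided) is the smallest that 2 libraries against 2 allow. Slc32a1 rested on 213 to 580 counts per library. The antisense transcript Gm14205 overlaps 697 bases, or 24.9%, of the exons of Slc32a1, but had between 0 and 4 counts per library.

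Clearance and breakdown genes fell as well. Slc6a11, the GAT3 transporter (ENSMUSG00000030307, chromosome 6, 114131241 to 114249952, plus strand), was at 141 and 137 CPM with FGF2 and at 208 and 213 CPM without FGF2. The FGF2 libraries were the low ones and lay close together, with a log2 fold change of -0.60 (SE 0.053, edgeR adjusted p = 3.02e-28). Abat, the transaminase (ENSMUSG00000057880, chromosome 16, 8513429 to 8621568, plus strand), was at 262 and 249 CPM with FGF2 and at 422 and 424 CPM without FGF2. Its groups were likewise apart, and its log2 fold change was -0.73 (SE 0.042, edgeR adjusted p = 1.26e-65).

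The chloride transporters moved in opposite directions. Slc12a2, the importer NKCC1 (ENSMUSG00000024597, chromosome 18, 57878678 to 57946821, plus strand), had 71.5 and 81.5 CPM with FGF2 and 57.2 and 55.3 CPM without FGF2. Both FGF2 libraries were high, replicate 2 more so than replicate 1. The log2 fold change was 0.45 (SE 0.079, edgeR adjusted p = 1.32e-07), that is 1.36 times the level without FGF2. Slc12a5, the extruder KCC2 (ENSMUSG00000017740, chromosome 2, 164960802 to 164999731, plus strand), had 78.8 and 76.1 CPM with FGF2 and 141 and 151 CPM without FGF2. Both FGF2 libraries were low, and the level was 52.9% of that without FGF2. The log2 fold change was -0.92 (SE 0.064, edgeR adjusted p = 2.55e-44), among the lowest 3.65% of all tested genes. Per kilobase, Slc12a2 stood at 0.619 and 0.731 of the Slc12a5 level with FGF2 and at 0.276 and 0.25 without. This ratio was 2.56 times higher with FGF2, a difference of 1.36 on the log2 scale where the SDs were 0.17 with FGF2 and 0.10 without, and it was the widest change among the 4 gene pairs given here. The groups did not overlap, and the exact permutation test (two-sided) gave its smallest p of 0.333. By the longest transcript the mean of this ratio on the log2 scale was -0.13 with FGF2 and -1.49 without, in place of -0.57 and -1.93. In bulk RNA the transcripts in this ratio need not come from the same cells, so it is not a ratio within neurons. Neither chloride nor protein was measured.

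Transcripts of both GABA-B receptor subunits fell. Gabbr1 (ENSMUSG00000024462, chromosome 17, 37045966 to 37075067, plus strand) had 409 and 389 CPM with FGF2 and 521 and 498 CPM without FGF2. The FGF2 libraries were lower by a small margin, and the log2 fold change of -0.35 (SE 0.039, edgeR adjusted p = 9.66e-19) was the smallest fall of the 8. Gabbr2 (ENSMUSG00000039809, chromosome 4, 46662305 to 46991873, minus strand) had 102 and 93.3 CPM with FGF2 and 167 and 173 CPM without FGF2. Its libraries with FGF2 were well below the others, at a log2 fold change of -0.80 (SE 0.059, edgeR adjusted p = 6.54e-40). Gabbr1 exceeded Gabbr2 per kilobase in every library, by 3.45 and 3.59 times with FGF2 and by 2.68 and 2.48 times without. The ratio was 1.36 times higher with FGF2, with no overlap between the groups (two-sided exact permutation p = 0.333, the smallest possible). The p-values of these 4 ratios remained 0.333 each after Benjamini-Hochberg adjustment.

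**Figure D2:**
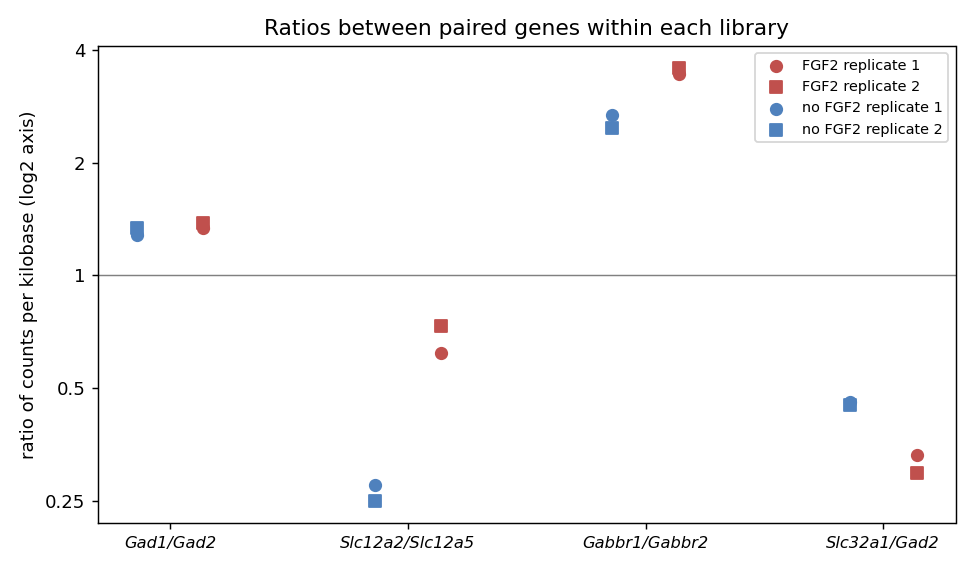
Ratio of counts per kilobase of exon (log2 axis) between paired genes within each of the 4 libraries, blue without FGF2 and red with FGF2, circles for replicate 1 and squares for replicate 2. Slc12a2/Slc12a5 moves from 0.25 and 0.276 to 0.619 and 0.731, whereas Gad1/Gad2 stays between 1.28 and 1.38.

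Ordered by level per length (TPM, counts per kilobase of exon scaled to the same total in each library), the genes without FGF2 ran from Gabbr1 at 278 ± 9.17 through Gad1 at 236 ± 5.9, Abat at 232 ± 0.295, Gad2 at 181 ± 1.1, Slc6a11 at 177 ± 2.96, Gabbr2 at 108 ± 2.45, Slc12a5 at 83.3 ± 3.84 and Slc32a1 at 82.3 ± 1.62 to Slc12a2 at 21.9 ± 0.561 TPM (SD, n = 2). Neighbours that differed by less than the sum of their SDs were Gad1 and Abat, Gad2 and Slc6a11, and Slc12a5 and Slc32a1. The same held with FGF2 for Gad1 and Abat, at a difference of 9.2 TPM against a sum of 12.3 TPM. With FGF2 the range narrowed, from 216 ± 3.15 TPM for Gabbr1 to 29.6 ± 3.37 TPM for Slc12a2 (SD, n = 2). Slc6a11 (116 ± 0.239 TPM) then stood above Gad2 (109 ± 5.22 TPM). Slc32a1, at 34.04 ± 1.09 TPM with FGF2, was next to Slc12a2 in the order of both groups. The gap between them was 60.4 TPM without FGF2 and 4.49 TPM with FGF2, where the sum of their SDs was 4.46 TPM. This order depends on the length used. With the length of the longest transcript in place of all exons, Slc6a11 stood above Gad2 without FGF2 too, at 169 against 144 TPM. With that length, Gad1 stood above Gabbr1 without FGF2, at 392 against 322 TPM, and Slc12a2 stood above Slc32a1 with FGF2, at 38.5 against 26.4 TPM.

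**Figure D3:**
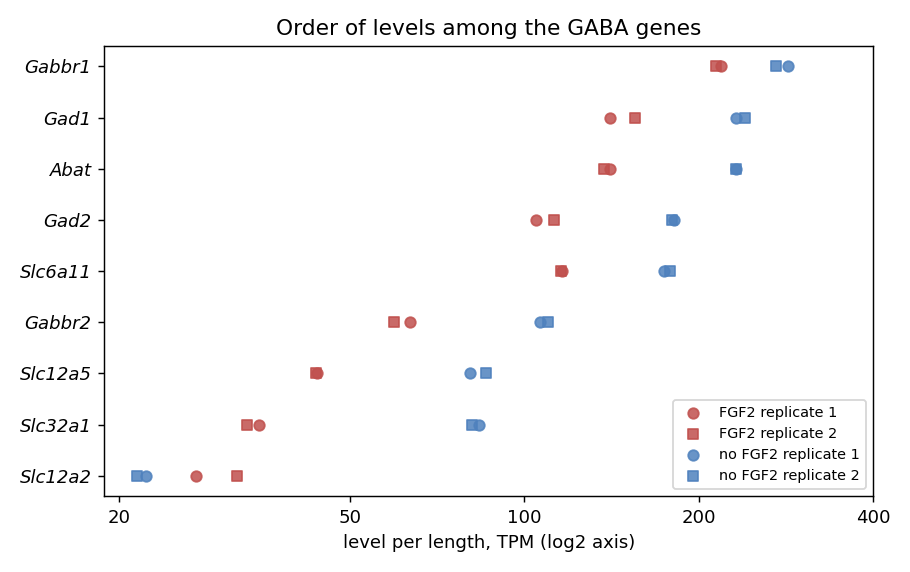
Level per length in TPM (x axis, log2 scale) of the 9 GABA genes in each library, ordered by the mean without FGF2, with circles for replicate 1 and squares for replicate 2. Red points (FGF2) lie left of the blue points (no FGF2) in every row except that of Slc12a2, where they lie right.

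To set the GABA genes against neurons in general, each count was divided by the summed counts of 12 pan-neuronal markers in the same library. These markers summed to 3742 and 3896 CPM with FGF2 and to 5491 and 5476 CPM without FGF2, and 10 of the 12 fell while 1, Nefl, rose. Map2 (-0.32 on the log2 scale) held the largest share, with 14221 of the 33958 summed counts in FGF2 replicate 1. Slc32a1 then had 6.27 and 5.58 counts per 1000 pan-neuronal counts with FGF2 and 10 and 9.78 without, so it was lower on this scale too, by -0.74 on the log2 scale. Slc12a5 was at 21.1 and 19.5 against 25.7 and 27.6 per 1000, a difference of -0.39. The differences for Gad1 (-0.14), Gad2 (-0.20), Abat (-0.21) and Gabbr2 (-0.28) were smaller than on the scale of all genes, with no overlap between the groups. Slc6a11 overlapped between the groups, at 37.8 and 35.1 with FGF2 and 37.8 and 38.9 without. Gabbr1 was higher on this scale, with 109 and 99.8 per 1000 with FGF2 and 94.8 and 91 without, a difference of 0.17. Slc12a2 was higher against the pan-neuronal markers, at 19.1 and 20.9 per 1000 with FGF2 and at 10.4 and 10.1 without, a difference of 0.96. This scale is not a level per neuron, since a gene's transcripts in bulk RNA may also come from other cells. A fall of the marker sum by itself raises every value on it. The exact permutation test (two-sided) gave p = 0.667 for Slc6a11 and p = 0.333 for the other 8, the smallest possible, and 0.375 after adjustment over the 9 genes.

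**Figure D4:**
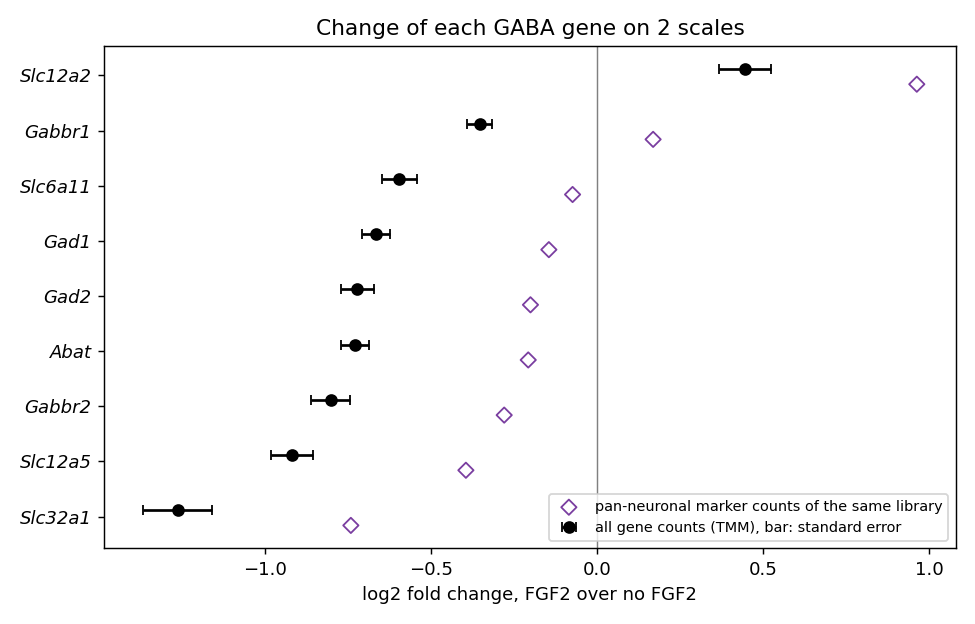
Log2 fold change (x axis) of the 9 GABA genes with FGF2 over no FGF2, relative to all gene counts (black points, bars are standard errors of the edgeR fit) and relative to the pan-neuronal marker counts of the same library (open diamonds, difference of the group means, n = 2). Slc32a1 is lowest on both scales, at -1.26 and -0.74, and Slc12a2 highest, at 0.45 and 0.96.

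Further genes of the pathway were counted from lists chosen by function. Of 10 other genes of GABA uptake, breakdown and cofactor supply, 9 were tested, with a median log2 fold change of -0.58. In this list 4 genes were lower, 2 were higher and 3 did not pass, where 19.9% of all tested genes were lower and 20.7% higher. The lower genes included Aldh5a1, which takes the product of Abat onward to succinate (-0.58, edgeR adjusted p = 9.02e-14), and the vitamin B6 kinase Pdxk (-0.96, edgeR adjusted p = 1.15e-37), which helps to supply the cofactor of Gad1, Gad2 and Abat. The higher genes were Adhfe1 (0.43, edgeR adjusted p = 3.55e-07) and Maob, a monoamine oxidase typical of astrocytes (0.72, edgeR adjusted p = 0.00314), which rested on 6.04 ± 0.734 CPM without FGF2 (SD, n = 2). Maob did not pass without replicate 1 of the cultures without FGF2 (edgeR adjusted p = 0.0867) or with DESeq2 (adjusted p = 0.109).

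Among 19 chloride transporters and their regulators, 16 were tested, 8 were lower and 2 were higher, with a median of -0.14. The shares over all tested genes were 19.9% lower and 20.7% higher. The lowest were the kinase Wnk2 (-0.79, edgeR adjusted p = 2.95e-46) and the bicarbonate transporters Slc4a10 (-0.75, edgeR adjusted p = 6.31e-15) and Slc4a8 (-0.63, edgeR adjusted p = 9.39e-21). The 2 higher genes were Wnk1 (0.29, edgeR adjusted p = 3.25e-15), a kinase upstream of NKCC1 and KCC2, and Slc12a7 (0.45, edgeR adjusted p = 1.8e-05), a potassium chloride cotransporter that is not specific to neurons. Oxsr1, a kinase that phosphorylates these transporters, was at -0.19 (edgeR adjusted p = 0.0308). It did not pass with replicate 2 with FGF2 (0.12), replicate 1 without FGF2 (0.231) or replicate 2 without FGF2 (0.0652) left out, values that are edgeR adjusted p. It also did not pass with DESeq2 (adjusted p = 0.22) or in edgeR without an expression filter (adjusted p = 0.0528). Only 4 genes of the list were lower with DESeq2, by which 1939 of all genes were lower in place of 3408.

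Of 14 GABA-B receptor partners and effectors, 13 were tested, and of these 3 were lower, 1 was higher and 9 did not pass, with a median of -0.18. Over all tested genes 19.9% were lower and 20.7% higher, so the share of lower genes in this list was near the background. The lower genes were the G protein subunits Gnai1 (-0.61, edgeR adjusted p = 5.92e-21) and Gnao1 (-0.33, edgeR adjusted p = 1.51e-21) and the receptor-associated Kctd16 (-0.28, edgeR adjusted p = 0.016). Gnai2, another inhibitory G protein subunit and not specific to neurons, was higher (0.35, edgeR adjusted p = 1.96e-13). Kctd16 did not pass with DESeq2 (adjusted p = 0.194) or, by edgeR, without replicate 1 with FGF2 (adjusted p = 0.204), replicate 1 without FGF2 (0.0593) or replicate 2 without FGF2 (0.107). The potassium channel genes Kcnj3, Kcnj6 and Kcnj9 did not pass, and their levels with FGF2 were 11.9%, 16.2% and 25.4% below those without. Of the GABA-A receptor subunits, 14 were tested and 8 were lower, with a median of -0.39 and examples in Gabrg3 (-0.71, edgeR adjusted p = 1.93e-14) and Gabra2 (-0.70, edgeR adjusted p = 6.43e-07). None of those 14 was higher. In edgeR without an expression filter, Gabre passed as higher on 3 and 9 counts with FGF2 and 0 in both libraries without.

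Markers of the cell types in the cultures shifted at the same time. Beside the counts below, 19.9% of all tested genes were lower and 20.7% higher by edgeR. Of 16 interneuron markers other than the 9 genes, 12 were lower and 0 higher by edgeR, with a summed level of 815 to 818 CPM with FGF2 and 1312 to 1337 CPM without. Dlx1, a transcription factor of interneurons, fell by 0.64 and Erbb4, the neuregulin receptor of interneurons, fell by 0.49 on the log2 scale (edgeR adjusted p = 2.79e-31 and 8.83e-28). Of 12 excitatory neuron markers, 6 were lower, among them Camk2a (-0.45) and Bcl11b (-0.95), and their summed level was 595 to 616 CPM with FGF2 and 814 to 837 CPM without. Astrocyte markers went the other way, with 8 of 11 tested higher, a summed level of 12940 to 13070 against 8104 to 8168 CPM, and a log2 fold change of 1.06 for Gfap, while Fgfr3 (-0.44) and Slc4a4 (-0.22), named after their values were seen, were lower. Slc6a11, whose product sits mainly on astrocytes, was lower in the libraries whose astrocyte markers were mostly higher, and so was Abat. All 8 oligodendrocyte precursor markers and all 7 tested oligodendrocyte markers were higher, with summed levels of 1516 to 1529 against 453 to 457 CPM and of 1468 to 1474 against 260 to 263 CPM. Slc12a2 was higher in the same libraries. Microglial markers were sparse, at 16.4 to 19.4 against 8.09 to 8.87 CPM in sum, with Tmem119, P2ry12, Aif1 and Itgam too low to test. The meningeal, mural and endothelial markers summed to 58.8 to 62.3 against 48.2 to 48.9 CPM, with Cldn5 at 0 counts in every library. Of 6 tested, 2 were lower, Col1a1 (-2.18) and Col1a2 (-1.73), and 2 were higher, Pdgfrb (0.73), which made up most of the sum, and Rgs5 (1.89), all named after their values were seen. Progenitor and proliferation markers were mixed, with 4 of 11 lower and 4 higher, and Vim made up most of their sum of 2029 to 2037 against 1145 to 1173 CPM. The part of these shifts in the changes of the GABA genes was not tested.

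**Figure D5:**
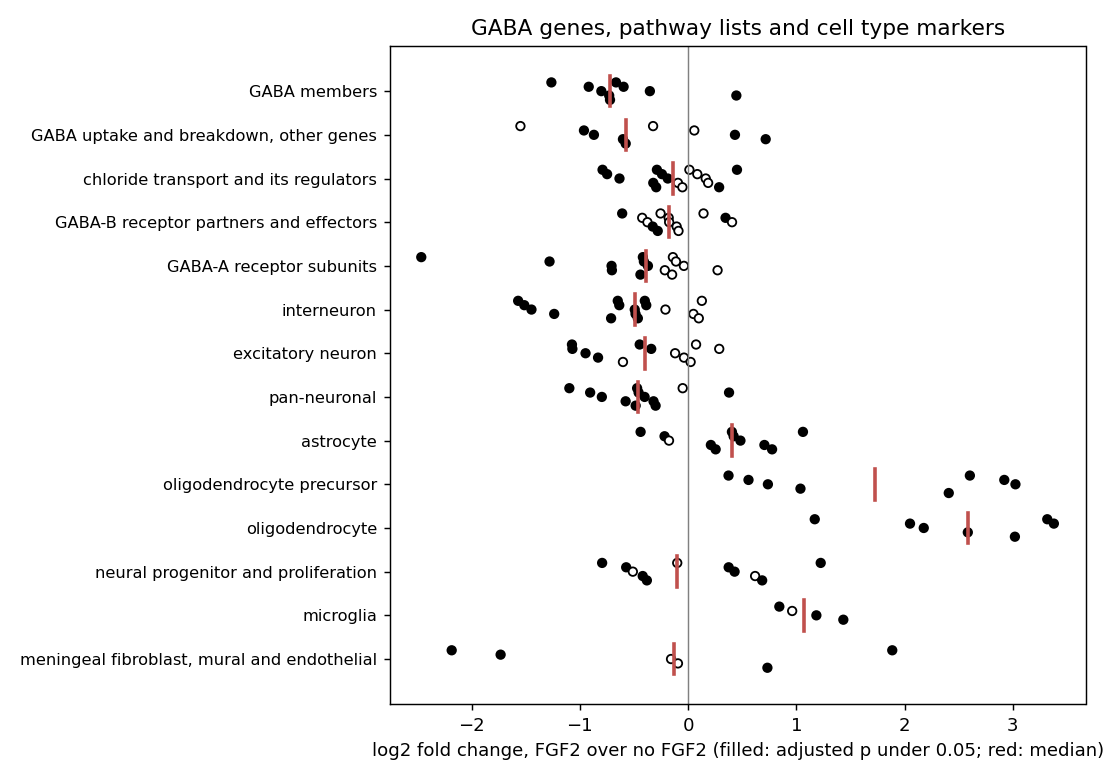
Log2 fold change (x axis) with FGF2 over no FGF2 for the tested genes of the 9 GABA genes, 4 pathway lists and 9 cell type marker lists, 1 point per gene, filled where the edgeR adjusted p was under 0.05, with the list median in red. The GABA genes lie left of 0 apart from Slc12a2, with a median of -0.72. Other uptake and breakdown genes have a median of -0.58, interneuron markers of -0.49 and pan-neuronal markers of -0.46. Astrocyte markers centre on 0.40 and oligodendrocyte markers on 2.58.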

How the data were processed

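The authors mapped clean reads to mm10 with HISAT2 2.1.0, kept alignments of mapping quality 20 or more with Samtools and counted read pairs per gene with HTSeq 0.11.2 (versions from the submitters' processing notes). The annotation release and strand setting are not given in the sources used here. The deposited values are raw counts, 1 file per library. Genes covered to at least 98% by another gene had a count in 4 of 652 cases on the same strand and in 154 of 457 on the opposite strand, so the counting kept strands apart.

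Of 55421 genes, 55240 matched GENCODE M21, which gave names, mm10 coordinates and lengths, and 5 tally entries were left out. Read pairs in no feature made up 45.0% to 45.9% of all tallied with FGF2 and 43.2% without. The edgeR 4.0.16 quasi-likelihood test (R 4.3.3, TMM, expression filter, robust) was run on 17144 genes with Benjamini-Hochberg adjustment. Ratios within a library were compared by exact permutation. Alternatives were RLE and total count scaling, no filter, at least 10 counts in every library, DESeq2 1.42.0, limma-voom (limma 3.58.1), a replicate block and leaving out each library. The fits were tested on simulated data. Replicates differed by more than sampling noise (chi-square per degree of freedom 2.28 with FGF2 and 1.76 without) and were kept as separate libraries. The longest transcripts of the 9 genes were aligned with BLAST to all others. Only Gad2 and Slc32a1 shared at least 100 bases at 95% identity with another gene. In Gad2 the stretch was at most 151 of 5744 bases, and in Slc32a1 it was its antisense gene.

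The genes and lists were chosen with earlier results of these data known. Named are the 9 genes, of each pathway list up to 3 of the highest and 3 of the lowest changes past the threshold with a mean of at least 5 CPM, and up to 2 markers per cell type. Further genes were picked with their values in view. A few genes under the rule are not reported here.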

Additional observations from a re-analysis of the deposited data

How the results depend on the processing

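All 9 genes kept their direction and passed the adjusted threshold of 0.05 under each alternative for normalization, filter, tool and block and with each library left out. The adjusted p nearest the threshold was that of Slc12a2, at 0.00167 with DESeq2, and its log2 fold change lay between 0.34 and 0.53 with a library left out. No label says what equal replicate numbers share between the groups, and deviations of same-numbered libraries had a correlation of 1.3e-05. With the replicate block 6814 genes passed in place of 6949, Slc12a2 had an edgeR adjusted p of 3.29e-07, and the block changed no call among the 9 genes. With DESeq2, 1939 genes were lower and 2068 higher in place of 3408 and 3541, 4 chloride genes were lower in place of 8, and 1 uptake or breakdown gene was higher in place of 2. That last count was between 1 and 2 with a library left out. Without an expression filter 1 GABA-A subunit was higher in place of 0. Against the mean log2 level of the pan-neuronal markers in place of their sum, the differences were -0.21 for Gad1 and -0.26 for Gad2. With 2 libraries per group no permutation test could reach 0.05.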

Other observations

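Genes named here were chosen after their values were seen. Among the GABA-A receptor subunits, Gabrr1, which encodes a rho subunit, had the lowest log2 fold change (-2.47, SE 0.42, edgeR adjusted p = 4.49e-08), at low levels of 1.10 and 0.61 CPM with FGF2 against 5.04 and 4.43 CPM without. Within the interneuron markers the changes were uneven. Sst (-1.57), Lhx6 (-1.51), Npy (-1.45) and Calb2 (-1.24) were lower past the adjusted threshold of edgeR, to a degree near that of Slc32a1 (-1.26), whereas Vip (0.13), Htr3a (0.099) and Nxph1 (-0.21) did not pass, with edgeR adjusted p of 0.814, 0.76 and 0.142. Vip and Htr3a were measured at low levels, with means of 2.96 to 8.07 CPM.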
